A study of Mus musculus with 6 samples.

Results

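The genes examined were 10 lymphoid priming genes, whose RNA marks progenitors of the bone marrow (BM) that lean towards the B and T lineages: Il7r, Dntt, Rag1, Rag2, Satb1, Tcf3, Ikzf1, Ikzf3, Notch1 and Bcl11a. They were found by gene symbol among the 21878 rows listed for each library, and each of the 10 names matched 1 row. The rule that finds them uses no measured value, but the list was drawn up with earlier results of these data known. The libraries were made from hematopoietic stem cells (HSCs) sorted from the BM of wild-type (WT) C57BL/6 mice, by the study's methods as CD34- Flk2- Lineage- Sca1+ c-Kit+ cells. There were 3 control libraries, from mice given vehicle, and 3 libraries from mice given a single subcutaneous dose of recombinant mouse insulin-like growth factor 1 (IGF1), with the cells taken at day 1 in both groups. The labels give neither the age of the animals nor whether each library came from separate animals, so the p-values below measure only the spread between these libraries. One label field speaks of irradiated rather than IGF1-treated mice, while the treatment label names IGF1, which was used.

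Lymphoid priming is the low, early transcription of lymphoid genes in cells that can still give other blood lineages. In multipotent progenitors, E proteins such as the product of Tcf3 and the Ikaros zinc finger factors open lymphoid loci. Signals through Flt3, the interleukin 7 receptor and Notch then favour the B or T fate. Dntt and the Rag genes, which serve V(D)J recombination, the joining of antigen receptor gene segments, are among the first lymphoid genes to be switched on. The most primitive HSCs are thought to express most of these genes little or not at all.

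Values were taken as FPKM, reads scaled by the length of the transcript and the depth of the library, although no source names the unit. The libraries still differed in scale. Their values summed to 466619, 635111 and 466135 in control replicates 1 to 3 and to between 677826 and 680285 in the IGF1 libraries. The 75th percentile of genes tested was 36.8, 30.4 and 37.0 FPKM against 28.9 to 29.0 FPKM. Sizes of change between libraries therefore depend on the scaling, as given below. Recovered reads came to between 11206746 and 15973581 per library. Control replicate 2 stood apart from the rest of its group. Over genes, the chi-squared of recovered reads per gene is 1 for counting error alone. It was 1.52 between control replicates 1 and 3 and between 1.69 and 1.89 within the IGF1 group. Between control replicate 2 and the other controls it was 229 and 231. Against the IGF1 libraries it was 24.6 to 28, so control replicate 2 lay nearer to the IGF1 libraries than to its own group. Fold changes of the tested members and counts of called genes are therefore given with and without that library. Without it, the spread within each group was little above counting error, so p-values of that fit need not measure the spread between animals.

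The sorted cells were checked against the genes of their gate. Kit RNA was present at 105, 31.4 and 104 FPKM in control replicates 1 to 3 and between 24.2 and 24.6 in the IGF1 libraries, and Ly6a (encoding Sca1) at between 219 and 615 FPKM in every library. Cd34 RNA, whose protein the gate excludes, was at 640, 265 and 634 FPKM in the controls and between 230 and 238 FPKM in the IGF1 libraries. Flt3 RNA (encoding Flk2, also excluded) was at 117, 172 and 117 FPKM and between 183 and 188 FPKM. By contrast, the HSC genes Mecom, Slamf1, Tek, Fgd5 and Hoxb5 reached at most 4.10 FPKM in any library. RNA of both excluded genes was thus abundant, and the libraries are described below as cells sorted as HSCs. In bulk RNA, fewer cells of a type and less RNA per cell cannot be told apart.

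Across the members the level spanned from Dntt, in the top 2% of listed genes, to Ikzf3, at the edge of detection. In control replicates 1 and 3 the mean level fell in the order Dntt (219 FPKM), Ikzf1 (55.8), Tcf3 (49.1), Satb1 (12.4), Bcl11a (9.87), Notch1 (2.98), Rag2 (2.59), Il7r (2.55), Rag1 (0.198) and Ikzf3 (0.0920). Rag2 and Il7r overlapped in these libraries, while the values of each other pair of neighbours did not. In the IGF1 libraries Dntt was again the highest (412 ± 8.06 FPKM, SD, n = 3), followed by Ikzf1 (29.3 ± 1.78), Tcf3 (28.4 ± 1.43), Bcl11a (17.9 ± 0.691), Satb1 (15.4 ± 0.549), Notch1 (14.8 ± 0.338), Il7r (3.78 ± 0.303), Rag2 (1.91 ± 0.0634), Rag1 (0.295 ± 0.0371) and Ikzf3 (0.0323 ± 0.0180). Here Ikzf1 overlapped Tcf3, and Satb1 overlapped Notch1. Notch1 thus stood close to Rag2 and Il7r in control replicates 1 and 3 and close to Satb1 in the IGF1 libraries.

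**Figure D1:**
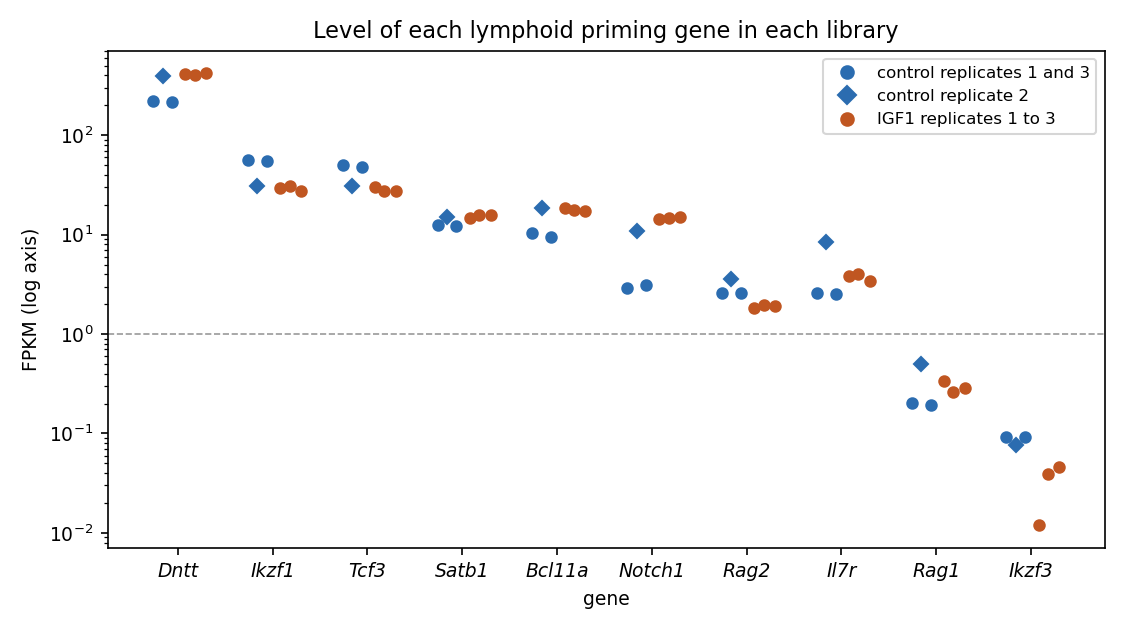
FPKM of the 10 lymphoid priming genes (x axis) in each of the 6 libraries on a log axis, with control libraries in blue (replicate 2 as a diamond) and IGF1 libraries in orange; the dashed line marks 1 FPKM, the level used in the filter. Rag1 and Ikzf3 lie below that line in every library, and control replicate 2 lies close to the IGF1 libraries for Dntt, Ikzf1, Tcf3, Satb1 and Bcl11a but above all other libraries for Il7r, Rag1 and Rag2.

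The test was limma on log2(FPKM + 1), run on genes that reached 1 FPKM in 3 or more of the 6 libraries. A difference had to exceed 2-fold and have a Benjamini-Hochberg adjusted p under 0.05 for the gene to be called. Of the 10 members, 8 passed this filter; Rag1 and Ikzf3 did not. None of these 8 was called, against 691 of all 10449 genes tested (6.61%, with 1.98% called higher and 4.63% called lower). Their limma adjusted p-values lay between 0.0557 and 0.931, so that 0 of 8 passed the adjusted p alone, beside 20.4% of all genes. At an unadjusted p under 0.05 there were 5 of the 8 (Notch1, Rag2, Tcf3, Ikzf1 and Dntt), beside 53.4% of all genes tested, and limma-voom on the recovered reads called 0 of the 8, beside 10.1% of all genes. On the fitted log2 scale 4 members were above 0 and 4 below, with a median of 0.08 against -0.18 over all genes. Without control replicate 2, 1 member (Notch1) was called, beside 32.9% of all genes, and all 8 had an adjusted p under 0.05, beside 88.5% of all genes. The groups did not overlap for 4 of the 8, namely Notch1 and Dntt (higher after IGF1) and Rag2 and Tcf3 (lower), beside 59.4% of all genes tested (21.9% higher and 37.4% lower). After correction for gene length and GC content, none of the 8 was called with all libraries (3.03% of all genes) and 4 without control replicate 2 (20.7% of all genes).

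**Figure D2:**
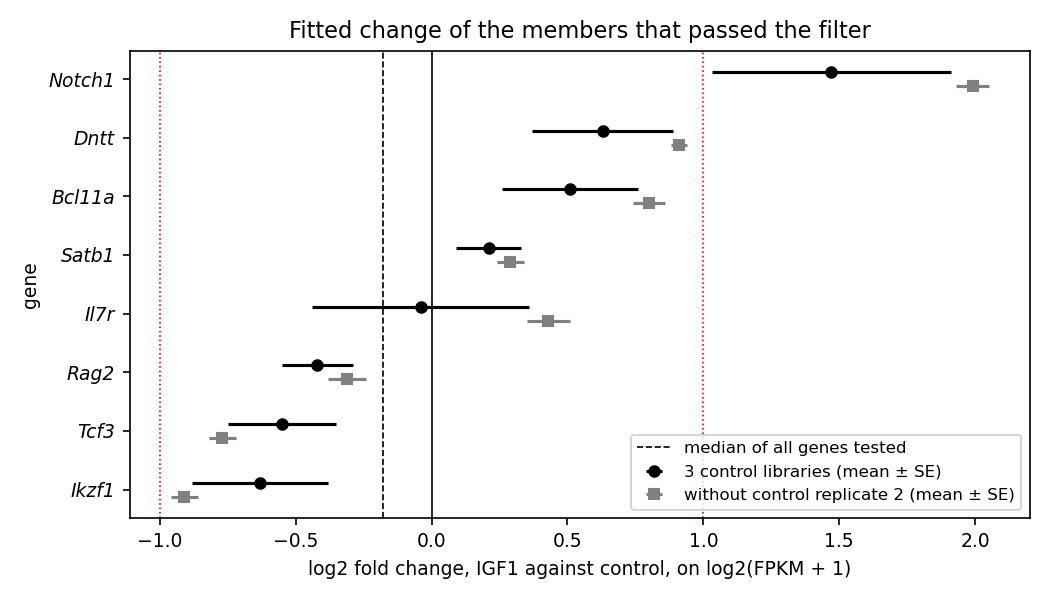
Fitted log2 fold change of IGF1 against control (x axis, on log2(FPKM + 1)) with its standard error for the 8 members that passed the filter, with 3 control libraries (black) and without control replicate 2 (grey); the dashed line is the median of all genes tested and the dotted lines mark a 2-fold change. Notch1 lies highest at 1.47 and Ikzf1 lowest at -0.63 with all libraries, and Il7r moves from -0.04 to 0.43 without control replicate 2.

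The recombination genes gave values in different directions, Dntt being higher and Rag2 lower in every IGF1 library than in any control, though neither was called. Dntt encodes terminal deoxynucleotidyl transferase, which adds untemplated nucleotides at V(D)J joints, and Rag1 and Rag2 encode the recombinase that cuts the segments. Rag1 and Rag2 are neighbours on chromosome 2 transcribed towards each other, while Dntt lies on chromosome 19. Because they share 1 process, the 250 bases before their transcription starts are shown, from RefSeq on GRCm38.p6, 5′ to 3′ on the strand of the gene, with every match to the E-box CANNTG (the element bound by E proteins) or to TGGGAA (the core bound by Ikaros factors, with the same letters as the core bound by the Notch partner RBPJ) in capitals. The windows are chr19:41029025-41029274 (plus strand) for Dntt, chr2:101649533-101649782 (minus strand) for Rag1 and chr2:101624462-101624711 (plus strand) for Rag2. None of them touches an exon annotated by GENCODE on GRCm38.
Dntt: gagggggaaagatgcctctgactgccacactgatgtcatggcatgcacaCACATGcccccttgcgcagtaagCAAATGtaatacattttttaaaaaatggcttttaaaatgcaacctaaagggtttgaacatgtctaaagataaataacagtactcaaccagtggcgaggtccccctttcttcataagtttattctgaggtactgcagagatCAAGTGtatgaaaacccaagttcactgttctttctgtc
Rag1: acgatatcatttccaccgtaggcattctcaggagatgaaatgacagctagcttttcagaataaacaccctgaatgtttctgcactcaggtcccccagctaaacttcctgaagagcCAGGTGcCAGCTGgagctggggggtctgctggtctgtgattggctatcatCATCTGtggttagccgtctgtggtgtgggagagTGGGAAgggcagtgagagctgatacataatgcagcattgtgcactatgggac
Rag2: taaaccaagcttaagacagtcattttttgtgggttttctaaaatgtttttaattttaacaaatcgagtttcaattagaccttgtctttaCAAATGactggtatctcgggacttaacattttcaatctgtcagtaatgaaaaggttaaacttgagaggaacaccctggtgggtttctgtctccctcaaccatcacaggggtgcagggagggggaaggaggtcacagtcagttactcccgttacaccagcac
Dntt holds 3 E-boxes, Rag1 holds 3 (1 of them CAGGTG) and 1 TGGGAA, and Rag2 holds 1 E-box. Read on both strands, CANNTG occurs in 66.2%, CAGGTG in 17.2% and TGGGAA in 21.6% of 32851 such windows of all genes. The GC content was 41.6% for Dntt, 50.8% for Rag1 and 41.2% for Rag2, against a median of 52.4%. CAGGTG is 1 of the sequences that CANNTG covers. Windows were matched for 9 members, 14 in all; Ikzf3 was not matched. The window of Notch1 and both windows of Ikzf1 hold none of these letters, which says only that they are not in those 250 bases.

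Dntt (chr19:41029275-41059525, plus strand) was at 220, 394 and 218 FPKM in control replicates 1, 2 and 3 and at 414, 403 and 419 FPKM in IGF1 replicates 1, 2 and 3. Every IGF1 library was above every control library, and control replicate 2 came within 5% of the IGF1 mean. The IGF1 mean was 1.49 times the control mean (277 ± 101 FPKM, SD, n = 3), and the log2 fold change was 0.63 ± 0.26 (SE, limma adjusted p = 0.0930), a difference not called. Against control replicates 1 and 3 alone the IGF1 mean was 1.88 times as high, a log2 fold change of 0.91 ± 0.03, under the 2-fold threshold. Between 7468 and 11516 reads stood behind each value, so counting error was small beside the gap between control replicate 2 and the other controls.

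Rag2 (chr2:101624718-101632529, plus strand) had its lower values in the IGF1 group. It was at 2.58, 3.56 and 2.61 FPKM in the controls and at 1.84, 1.97 and 1.91 FPKM in the IGF1 libraries, from 154, 153 and 157 reads against 85, 83 and 92. Every IGF1 library was below every control library, with or without control replicate 2, which here was the highest of all. The control mean (2.91 ± 0.555 FPKM, SD, n = 3) was 1.53 times the IGF1 mean. The log2 fold change was -0.42 ± 0.13 (SE, limma adjusted p = 0.0582) and was not called; the exact permutation test over libraries gave p = 0.1, the smallest that 3 against 3 libraries allow (two-sided). Leaving out control replicate 2 gave -0.31 ± 0.07. Removing trends on gene length and GC content turned the direction, to 0.29 ± 0.29.

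Rag1 (chr2:101638282-101649501, minus strand) was much lower than Rag2, at 0.204, 0.501 and 0.193 FPKM in the controls and at 0.335, 0.262 and 0.287 FPKM in the IGF1 libraries. These values rest on 22, 39 and 21 reads and on 28, 20 and 25 reads, and the gene was under the filter of the main limma fit. With no filter on low values, limma called 0 of the 10 members. Control replicate 2 was the highest, its 95% exact Poisson interval (0.356 to 0.685 FPKM) lying above those of control replicates 1 and 3 (0.128 to 0.308 and 0.120 to 0.295), while the groups overlapped (exact permutation p = 1.0, two-sided). The IGF1 intervals, from 0.160 at the lowest to 0.484 at the highest, overlapped both. The intervals cover counting error only. Another gene bears on both Rag genes: B230118H07Rik, on the minus strand, shares 208 of the 3424 exonic bases of Rag2 (6.1%) on the opposite strand and 80 of the 6608 of Rag1 on the same strand. It was at 19.4, 28.6 and 18.6 FPKM in the controls and at 22.7, 25.4 and 23.0 FPKM in the IGF1 libraries, from 737 to 862 reads. The kit keeps strand, but whether the counting used it is not given in the sources used here, so the share of the Rag2 and Rag1 reads that belongs to this gene cannot be told apart.

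Il7r (chr15:9505788-9530176, minus strand) encodes the alpha chain of the interleukin 7 receptor, which common lymphoid progenitors need to survive and grow. It was at 2.60, 8.43 and 2.51 FPKM in the controls and at 3.87, 4.02 and 3.44 FPKM in the IGF1 libraries. Control replicate 2 was the highest library and the other controls the lowest, so that the IGF1 group lay between them. The control mean was 4.51 ± 3.39 FPKM and the IGF1 mean 3.78 ± 0.303 FPKM (SD, n = 3), and the log2 fold change was -0.04 ± 0.40 (SE, limma adjusted p = 0.931). The direction rests on that library: without it the IGF1 mean was 1.48 times the control mean and the log2 fold change was 0.43 ± 0.08 (adjusted p = 0.000502), under the 2-fold threshold. Quantile or 75th percentile scaling also turned it above 0, to 0.05 and 0.15, and correction for length and GC content to 0.67. The 318 reads of control replicate 2 gave an interval of 7.53 to 9.41 FPKM, which touched none of the intervals of the other libraries (2.10 at the lowest and 4.73 at the highest).

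**Figure D3:**
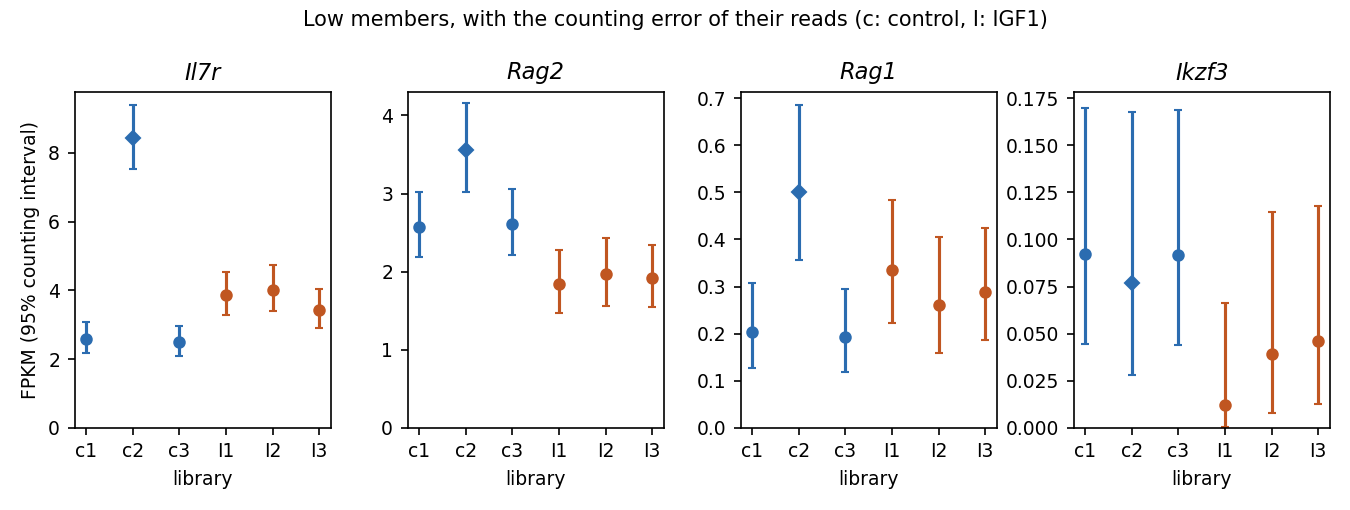
FPKM with 95% exact Poisson intervals of the recovered reads for Il7r, Rag2, Rag1 and Ikzf3, with control replicates (c1 to c3) in blue and IGF1 replicates (I1 to I3) in orange. Control replicate 2 is highest for Il7r (8.43), Rag2 (3.56) and Rag1 (0.501), and the intervals of Ikzf3 are wide, since it has at most 10 reads in a library.

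The Ikaros factors bind DNA through zinc fingers and recruit the nucleosome remodelling and deacetylase (NuRD) complex. Ikzf1, encoding Ikaros, is needed for the earliest lymphoid progenitors. Ikzf1 (chr11:11685003-11772926, plus strand) was at 56.7, 30.7 and 54.8 FPKM in the controls and at 29.7, 30.9 and 27.4 FPKM in the IGF1 libraries. Control replicates 1 and 3 were the 2 highest libraries, while control replicate 2 fell among the IGF1 libraries, so the groups overlapped. The control mean (47.4 ± 14.5 FPKM, SD, n = 3) was 1.62 times the IGF1 mean, and the log2 fold change was -0.63 ± 0.25 (SE, limma adjusted p = 0.0872). Leaving out control replicate 2 gave -0.91 ± 0.05, against a median of -0.24 over all genes, and the gene was again not called. Once trends on length and GC content had been removed, its log2 fold change was -0.30 ± 0.16.

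Ikzf3 (chr11:98464902-98546031, minus strand) encodes Aiolos, which acts later, in B cell precursors. It was at 0.0923, 0.0769 and 0.0918 FPKM in the controls and at 0.0119, 0.0392 and 0.0459 FPKM in the IGF1 libraries. These levels rest on 10, 6 and 10 reads and on 1, 3 and 4 reads, 26 against 8 in all. The 3 IGF1 libraries were below the 3 controls (exact permutation p = 0.1, two-sided, the smallest possible), but every interval of an IGF1 library overlapped that of each control. With so few libraries and reads, no test run here could have called a difference in Ikzf3.

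Tcf3 encodes the E proteins E12 and E47, which start the B cell programme and are opposed by the ID proteins. Tcf3 (chr10:80409514-80433647, minus strand) was at 50.1, 30.6 and 48.0 FPKM in the controls and at 30.0, 27.6 and 27.5 FPKM in the IGF1 libraries. All IGF1 libraries were below all controls, although control replicate 2 was above the highest IGF1 library by less than 1 FPKM. The control mean (42.9 ± 10.7 FPKM, SD, n = 3) was 1.51 times the IGF1 mean, and the log2 fold change was -0.55 ± 0.20 (SE, limma adjusted p = 0.0764), which was not called. It was -0.77 ± 0.05 without control replicate 2 and -0.62 ± 0.16 with the trends on length and GC content removed, so its direction held in both.

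Satb1 encodes a chromatin organizer that prepares lymphoid loci in stem and progenitor cells. Satb1 (chr17:51736187-51833290, minus strand) was at 12.4, 15.0 and 12.3 FPKM in the controls and at 14.8, 15.6 and 15.8 FPKM in the IGF1 libraries. Control replicate 2 was above the lowest IGF1 library, so the groups overlapped. With an IGF1 mean 1.16 times the control mean (13.2 ± 1.5 FPKM, SD, n = 3) and a log2 fold change of 0.21 ± 0.12 (SE, limma adjusted p = 0.182), Satb1 was not called. It was 0.29 ± 0.05 when control replicate 2 was left out. The size depends on the scaling: it was 0.54 with quantile normalization, 0.45 with 75th percentile scaling and 0.50 with the trends on length and GC content removed, with the same direction in each.

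Bcl11a encodes a zinc finger repressor that B cell development requires. Bcl11a (chr11:24078056-24174123, plus strand) was at 10.3, 18.7 and 9.45 FPKM in the controls and at 18.7, 17.6 and 17.4 FPKM in the IGF1 libraries. Control replicate 2 was as high as the highest IGF1 library, and the other controls were the lowest of the 6. The IGF1 mean was 1.40 times the control mean (12.8 ± 5.13 FPKM, SD, n = 3), with a log2 fold change of 0.51 ± 0.25 (SE, limma adjusted p = 0.140). Without control replicate 2 it was 1.81 times as high and the log2 fold change was 0.80 ± 0.06, still under the 2-fold threshold.

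Notch1 encodes the receptor that directs lymphoid progenitors to the T lineage. Its intracellular part is released by the gamma-secretase protease and acts with RBPJ on DNA. Notch1 (chr2:26457903-26516663, minus strand) was at 2.88, 10.8 and 3.08 FPKM in the controls and at 14.5, 14.8 and 15.2 FPKM in the IGF1 libraries. Every IGF1 library was above every control. Control replicate 2, at 3.64 times the mean of the other controls, reached 0.730 of the IGF1 mean. The IGF1 mean was 2.65 times the control mean (5.60 ± 4.54 FPKM, SD, n = 3), and the log2 fold change was 1.47 ± 0.44 (SE, limma adjusted p = 0.0557), past the fold threshold but not past the adjusted p. Without control replicate 2 the IGF1 mean was 4.98 times as high, the log2 fold change was 1.99 ± 0.06 (adjusted p = 6.2e-10) and the gene was called. Removing the trends on length and GC content gave 1.0 ± 0.33 with all libraries; Notch1 is longer than 96.8% of the genes tested. The antisense genes 0610009E02Rik and Gm13568 cover 7.5% and 2.9% of its exonic bases, so that some of its reads are uncertain in origin if strand was not used.

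Control replicate 2 did not take the same place for every member. For Dntt, Ikzf1, Tcf3, Satb1, Bcl11a and Notch1 it lay from 0.730 to 1.08 times the IGF1 mean, on the IGF1 side of control replicates 1 and 3. Among 6619 genes that differed by over 0.5 on the log2 scale between the IGF1 libraries and control replicates 1 and 3, the median place of control replicate 2 was 0.81 of the way to the IGF1 mean, with quartiles of 0.63 and 0.97. For these 6 members it was between 0.79 (Notch1) and 1.08 (Bcl11a). For Il7r, Rag1 and Rag2, control replicate 2 was instead 3.3, 2.53 and 1.37 times the mean of the other controls and 2.23, 1.70 and 1.87 times the IGF1 mean. For Rag2 it lay on the far side of the other controls, as it did for 1.5% of the 6619 genes, and for Il7r and Rag1 it lay beyond the IGF1 libraries, as for 21.3% of those genes. These 3 members and Satb1 themselves differed by under 0.5, so their place is a description. The same library also had the highest level of the pre-B cell genes Igll1 (127 FPKM, against 19.7 and 20.4 in the other controls and 91.5 to 95.2 in the IGF1 libraries) and Cd79a (71.4 against 16.6 and 17.5, and 58.0 to 66.3), which were picked after their values were seen.

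**Figure D4:**
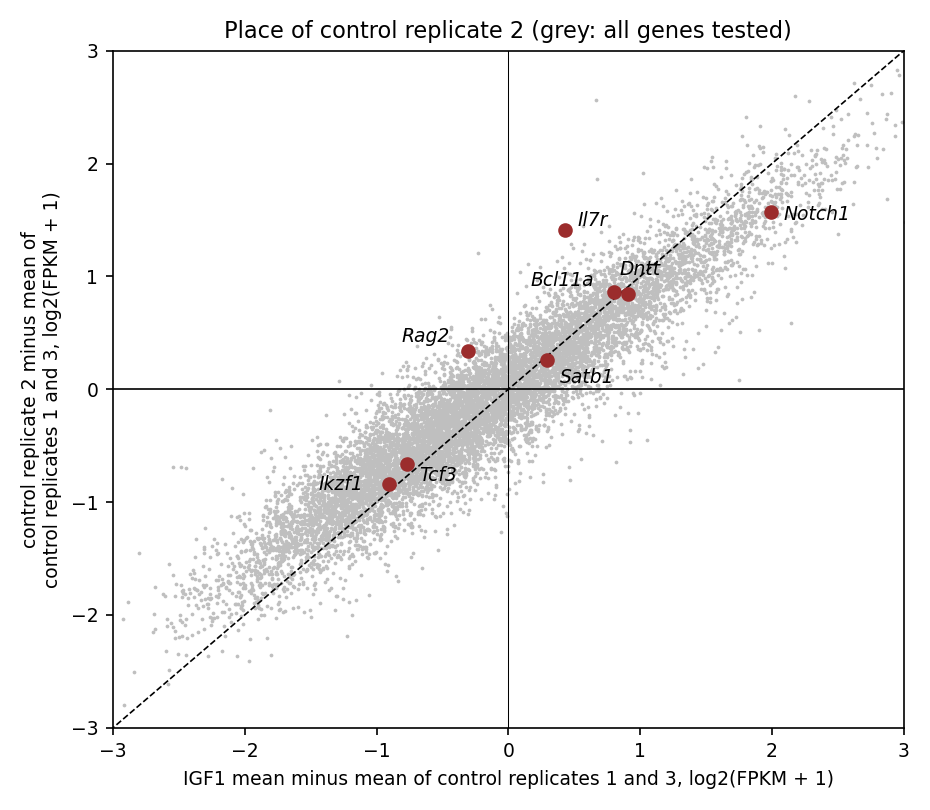
For each gene tested (grey) and the 8 tested members (red), the difference of control replicate 2 from control replicates 1 and 3 (y axis) against the difference of the IGF1 mean from the same 2 libraries (x axis), both in log2(FPKM + 1); on the dashed line control replicate 2 equals the IGF1 mean and on the horizontal line it equals the other controls. Notch1, Dntt, Bcl11a, Satb1, Tcf3 and Ikzf1 lie near the dashed line, while Il7r and Rag2 lie above the bulk of genes; genes beyond 3 in either direction are not drawn.

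Markers of other blood cells varied along with the members. The 10 B cell and pre-B cell markers summed to 252 to 581 FPKM in the controls and at 540 to 557 FPKM in the IGF1 libraries, with the 581 in control replicate 2; 0 were called (5 higher without control replicate 2), 6 of 7 tested lay above 0, and the mature B cell markers Ms4a1 and Cd22 stayed under 0.4 FPKM in every library. Vpreb1, part of the pre-B cell receptor, was at 15.4, 116 and 15.7 FPKM in the controls and at 124 to 133 FPKM in the IGF1 libraries. The 12 T and NK cell markers summed to 390 to 812 FPKM and 804 to 822 FPKM, nearly all of it Nkg7, with Cd8a, Cd8b1 and Ncr1 listed at 0 in every IGF1 library and 0 called (1 higher without control replicate 2). Of the 12 neutrophil and monocyte markers (3240 to 4342 and 4486 to 4508 FPKM), 9 were tested. Called lower were 4, namely Ngp, Camp, S100a8 and S100a9, beside 4.63% of all genes, and Ly6g was listed at 0 in the IGF1 libraries. Of the 9, 3 lay above 0 and 6 below. Elane (log2 fold change 2.03) and Prtn3 (1.14) were higher in every IGF1 library than in any control, though not called. Of the 8 megakaryocyte and platelet markers (55.7 to 79.2 and 103 to 113 FPKM), 6 were tested. Called higher were 2, Gp1bb and Treml1, beside 1.98% of all genes. None was called among the 8 dendritic cell markers (263 to 715 and 692 to 736 FPKM; Cd209d at 0 in the IGF1 libraries), the 10 erythroid (43.0 to 114 and 57.4 to 63.6 FPKM) or the 8 stromal and endothelial markers (18.2 to 38.1 and 22.8 to 24.2 FPKM; Cdh5 at 0 in the IGF1 libraries). Nor was any called among the 15 HSC genes (562 to 798 and 553 to 568 FPKM) or 7 genes of surface proteins used to set HSCs apart from other cells (592 to 1106 and 535 to 548 FPKM), which included Cd48 and Ptprc beside genes that the gate excludes. Without control replicate 2 the calls were 1 higher and 5 lower among the HSC genes, 3 lower among those 7 genes, 2 higher and 4 lower among the neutrophil and monocyte markers, 4 higher among the megakaryocyte and platelet markers and 1 higher among the dendritic cell markers, while the erythroid and stromal lists again had none. In that fit the log2 fold change of Vpreb1 was 2.95 instead of 2.01, and that of Kit was -2.06 instead of -1.49. The part of these cells in the levels of the lymphoid priming genes was not tested.

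Over 7 lists of other genes from the same pathways, 110 of 131 genes were tested, and 1 rose and 7 fell, or 7.27% beside the 6.61% of all genes. The median log2 fold change was 0.12 against -0.18 over all genes, with 59 genes above 0 and 51 below. Without control replicate 2, 19 were called higher and 24 lower (beside 12.3% and 20.6% of all genes), and without any 1 of the other libraries none was called.

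Among 15 tested genes of IL7 and FLT3 signalling, 1 rose: Pim1, a survival kinase induced by cytokines, was at 12.9, 23.8 and 14.1 FPKM in the controls and at 33.1 to 34.8 FPKM in the IGF1 libraries (log2 fold change 1.02 ± 0.23 SE, limma adjusted p = 0.0419). Flt3, the receptor that acts beside Il7r, had a log2 fold change of 0.48 ± 0.18 (limma adjusted p = 0.0783). Il2rg, the common gamma chain with which Il7r pairs, was at 245, 144 and 242 FPKM and at 103 to 107 FPKM (-0.97 ± 0.23, limma adjusted p = 0.0430), just under the fold threshold. The median of this list was 0.02. Without control replicate 2 the log2 fold changes were 1.28 for Pim1, 0.67 for Flt3 and -1.22 for Il2rg, and 3 genes of the list were called higher and 3 lower. Removing the trends on gene length and GC content gave 1.12 for Pim1, which stayed called, 0.8 for Flt3 and -0.94 for Il2rg.

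No gene was called among 10 of the E protein and ID network (median 0.29, 7 above 0). Lmo2, a bridging protein of E protein complexes, had a log2 fold change of -0.26 ± 0.12, and Lyl1, a partner of the E proteins, of 0.55 ± 0.14 (limma adjusted p = 0.0477), under the fold threshold. Of 15 genes of the Ikaros family and NuRD, 3 fell, all of NuRD: Rbbp4 (-1.22 ± 0.27), Hdac2 (-1.45 ± 0.37) and Rbbp7 (-1.55 ± 0.42), histone-binding subunits and a deacetylase, with limma adjusted p-values of 0.0412, 0.0467 and 0.0498. Rbbp7 was at 389, 137 and 390 FPKM in the controls and at 91.1 to 97.2 FPKM in the IGF1 libraries. The list had a median of 0.38 with 8 genes above 0, so the called members and the median differed in sign. Leaving out control replicate 2 gave -0.33 for Lmo2, 0.69 for Lyl1, -1.54 for Rbbp4, -1.89 for Hdac2 and -2.05 for Rbbp7, with 1 gene called higher in the E protein and ID network and 6 higher and 6 lower in the Ikaros and NuRD list. Correcting for length and GC content, with all libraries, gave -0.76 for Rbbp4, -0.75 for Hdac2 and -1.1 for Rbbp7 (limma adjusted p = 0.0604). None of these NuRD genes was then called. Lmo2 was at -0.42 and Lyl1 at 0.08 after this correction.

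In the Notch pathway, 1 of 20 tested genes fell and none rose (median 0.01). The receptor gene Notch1 itself had the highest fitted log2 fold change of the tested members, though it was not called. The gene that fell was Ncstn, encoding nicastrin of gamma-secretase, at 49.5, 23.3 and 46.9 FPKM in the controls and at 15.4 to 16.4 FPKM in the IGF1 libraries (-1.20 ± 0.29, limma adjusted p = 0.0446). Psenen, another subunit of the protease, had a log2 fold change of 0.92 ± 0.30 (limma adjusted p = 0.0617), and Mfng, which modifies Notch receptors with sugars, of 0.13 ± 0.10. The fitted changes of these 2 subunits lay on either side of 0. They were -1.54 for Ncstn, 1.27 for Psenen and 0.07 for Mfng without control replicate 2, when 3 genes of the pathway were called higher and 5 lower. Removing the trends on gene length and GC content gave -0.86 for Ncstn, 0.08 for Psenen and -0.15 for Mfng. Ncstn was then under the fold threshold and not called.

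Among 18 early lymphoid transcription factors, 1 fell (median 0.24): Cbfb, the partner of the RUNX factors, was at 110, 38.5 and 107 FPKM in the controls and at 23.7 to 27.9 FPKM in the IGF1 libraries (-1.56 ± 0.41, limma adjusted p = 0.0483). Spi1, encoding PU.1, had a log2 fold change of 0.69 ± 0.14 (limma adjusted p = 0.0388) and Myc of -0.90 ± 0.32, neither of them called. Of 16 genes of V(D)J joining and end joining, 2 fell and the median was -0.24: Xrcc5, encoding the Ku80 protein of end joining (-1.77 ± 0.43, limma adjusted p = 0.0450), and Hmgb1, a DNA-bending protein that helps the RAG recombinase bind (-1.0 ± 0.22, limma adjusted p = 0.0412). Hmgb1 was at 255, 155 and 259 FPKM in the controls and at 102 to 116 FPKM in the IGF1 libraries. None of the 16 surface and adaptor genes of lymphoid-primed progenitors was called (median 0.06); Cd52 had a log2 fold change of 1.81 ± 0.56 (limma adjusted p = 0.0591) and Cd27 of 0.03 ± 0.16. With control replicate 2 left out, the log2 fold changes were -2.06 for Cbfb, 0.82 for Spi1, -1.27 for Myc, -2.26 for Xrcc5, -1.25 for Hmgb1, 2.48 for Cd52 and 0.19 for Cd27. The calls were then 3 higher and 4 lower among the transcription factors, 2 lower among the joining genes, and 3 higher and 4 lower among the surface and adaptor genes. Correcting for length and GC content, with all libraries, gave -0.31 for Hmgb1 (limma adjusted p = 0.0597) and -0.89 for Cbfb (0.0571). Hmgb1 and Cbfb were then not called, while Xrcc5 stayed called at -1.26 (limma adjusted p = 0.0490). Spi1 was at 0.45, Myc at -0.77, Cd52 at 0.87 and Cd27 at -0.18 after this correction.

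**Figure D5:**
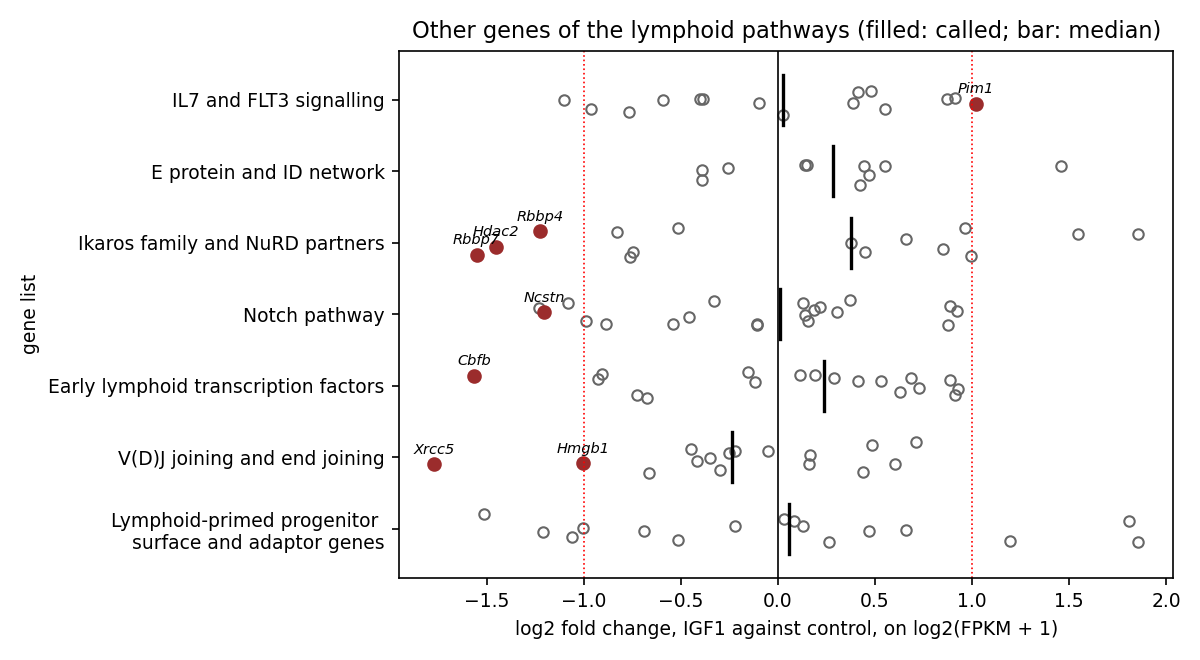
Log2 fold change of IGF1 against control (x axis, on log2(FPKM + 1)) for 110 other genes in 7 pathway lists (y axis), with called genes filled and named, the list median as a bar and dotted lines at a 2-fold change. Pim1 is the 1 gene called higher, at 1.02; 7 are called lower, from -1.0 (Hmgb1) to -1.77 (Xrcc5).

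The 6 libraries differed in depth, and control replicate 2 stood apart from its group, which bears on many genes at once. The gene whose level ran closest to each tested member was found by Pearson's r of log2(FPKM + 1) over these libraries. For Notch1 it was Eif3k, a translation initiation subunit (r = 0.99997), and 904 genes had r over 0.99. For Dntt it was Plac8 (r = 0.99964, with 906 such genes), for Ikzf1 Ly9 (0.99967, 642), for Tcf3 Ythdf1 (0.99935, 592) and for Bcl11a Chd6 (0.99951, 288). Fewer genes ran close to Satb1 (Slc4a2, 0.99568, 34), Rag2 (Gm12942, 0.99699, 12) and Il7r (Ly6e, 0.99594, 7). Ly6e, at 779, 1189 and 770 FPKM in the controls and at 886 to 913 FPKM in the IGF1 libraries, shared with Il7r that control replicate 2 was highest and that the IGF1 group lay between the controls.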

How the data were processed

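RNA-seq of cells sorted as HSCs gave 1 table per library, for 3 control and 3 IGF1 libraries. The authors trimmed reads with fastp; the paper's methods name RSEM for quantification, while the submitters' processing notes name HISAT2, StringTie and GRCm38 (mm10). The deposited tables hold a value per gene symbol, already scaled by the authors for gene length and depth and so taken as FPKM, although no source names the unit: once scaled by relative depth, they were whole multiples of 1 step for 14838 of 14838 genes above 0 in 2 or more libraries (tolerance 0.01). Multiples of the step served as reads. Whole reads were used for 95% exact Poisson intervals and 1 alternative.

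Genes that reached 1 FPKM in 3 or more libraries (10449) were tested on log2(FPKM + 1), pseudocount 1, with limma 3.58.1 in R 4.3.3 (lmFit, eBayes with a trend), and called where the difference exceeded 2-fold with a Benjamini-Hochberg adjusted p under 0.05. The scale understates changes of low genes such as Rag2 and Il7r. Genes under the filter got an exact permutation test. The scripts were tested on simulated data. Of all rows, 27 had date-like names and 4 shared a name.

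The members, the 7 pathway lists and the 9 marker lists were chosen with earlier results of these data known. Named were all members, in each pathway list the called genes by smallest adjusted p (4 at most) or, where fewer than 2 were called, also the 2 highest genes, and the gene most correlated with each member; genes named outside this rule were chosen after their values were seen. Exons came from GENCODE and promoter windows from RefSeq on GRCm38. The alternatives are given below. The level of 1 marker gene is not reported here.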

Additional observations from a re-analysis of the deposited data

How the results depend on the processing

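Over all genes 691 were called (207 higher, 484 lower). The count was 374 with no filter on low values, 223 with a pseudocount of 5, 3435 with library weights, 1059 with limma-voom on recovered reads and 2130 by adjusted p alone. With 75th percentile scaling 301 of 561 calls were higher. Leaving out 1 library gave between 0 and 3438, the highest without control replicate 2 and 0 without any other. Further alternatives were chosen after seeing the data: removing trends on gene length and GC content gave 314 (160 higher), the same without control replicate 2 gave 2144, and averaging control replicates 1 and 3 into 1 library gave 0.

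Of the lymphoid priming genes 0 were called. There was 1 with library weights (Notch1) and between 0 and 1 on leaving out 1 library, and 4 (Il7r, Dntt, Bcl11a and Notch1) with the trends removed and without control replicate 2. Of the other pathway genes 8 were called, with 5 under quantile normalization, 3 with no filter, 3 with a pseudocount of 5, 43 with library weights, 21 by adjusted p alone, 4 with the trends removed, 40 with the trends removed and without control replicate 2, 0 with control replicates 1 and 3 averaged, and between 0 and 43 on leaving out 1 library. With 75th percentile scaling 8 were again called, 5 of them higher.

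Among single members, 10 values turned direction. Il7r (-0.04) went to 0.05 with quantile normalization, 0.15 with 75th percentile scaling, 0.42 with library weights, 0.03 with limma-voom, 0.67 with the trends removed and 1.36 with that and without control replicate 2; on leaving out 1 library it lay between -0.29 (without control replicate 3) and 0.43 (without control replicate 2), and was 0.01 without IGF1 replicate 3. Rag2 (-0.42) went to 0.29 with the trends removed and 0.63 with that and without control replicate 2. The cause was not tested. The other 6 tested members kept their direction in every alternative that gave a value; a minimum of 5 FPKM dropped Il7r and Rag2. Scaling moved some of their sizes: with quantile normalization and 75th percentile scaling Dntt (0.63) was 0.29 and 0.88, Ikzf1 (-0.63) -0.42 and -0.38, Tcf3 (-0.55) -0.33 and -0.30, Bcl11a (0.51) 0.81 and 0.75, and Satb1 (0.21) 0.54 and 0.45.

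Replicate numbers were not taken as pairs. Same-number correlations of the deviations from the group mean were -0.06, -0.05 and 0.01. They cannot show whether samples were paired, since the control deviations were mostly those of control replicate 2. With the replicate block 0 genes, 0 lymphoid priming genes and 0 pathway genes were called. The median of all genes was -0.18, and 0.04, -0.02 and -0.04 with 75th percentile scaling, quantile normalization and the trends removed. Relative to -0.18, Il7r lay at 0.14, Rag2 at -0.24, Ikzf1 at -0.45, Tcf3 at -0.37, Satb1 at 0.39, Dntt at 0.81, Bcl11a at 0.69 and Notch1 at 1.65. Depth limits Ikzf3 and Rag1, which have at most 10 and 39 reads per library.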
